A study of Mus musculus with 2 samples.

Results

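Sox1, Sox2, Sox3, Sox4, Sox5, Sox6, Sox8, Sox9, Sox11 and Sox21 are 10 genes of the Sox family of transcription factors. They were selected by symbol from a table of ribosome footprints that covered 45578 genes, and each matched 1 gene. The footprints came from polysomes of whole brain of 2 control mice at postnatal day 5. Both animals were Smn+/-; SMN2tg/0 on the FVB background, so every control carried 1 disrupted copy of mouse Smn and a human SMN2 transgene. The labels call the libraries biological replicates 1 and 2 of 1 group (n = 2), and no other genotype or age was analysed here. In ribosome profiling, nuclease digests the mRNA that ribosomes do not cover, and the protected fragments, here of 25 to 35 nucleotides, are counted.

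Sox proteins bind DNA through an HMG box, a domain that inserts into the minor groove and bends the helix. They act with partner factors such as POU proteins, and the family is divided into groups by the sequence of the box. In the developing brain, SoxB1 proteins hold neural stem and progenitor cells in their undifferentiated state, and SoxB2 proteins such as Sox21 oppose them. SoxC proteins switch on genes of newborn neurons. SoxE proteins specify astrocytes and oligodendrocytes, and SoxD proteins, which lack a transactivation domain of their own, act with SoxE in glia and in the specification of particular neurons.

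The table held 1866831 footprints in replicate 1 and 5261878 in replicate 2, a ratio of 2.82. The 10 Sox genes together had 1834 and 3827 of them, or 0.0855% ± 0.0180 of each library (SD, n = 2). Markers of brain cells were present: young neuron genes took 0.526% ± 0.0879 of the footprints, astrocyte genes 0.239% ± 0.00363, oligodendrocyte lineage genes 0.126% ± 0.0167, and neural progenitor genes 0.139% ± 0.0102. In whole brain, fewer cells of a type and less RNA per cell cannot be told apart, so every level below describes the tissue. RNA levels of the same brains were not analysed here, so these are footprint levels and not translational efficiencies.

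SoxC genes carried the most ribosomes for their length, SoxE and Sox2 came next, and Sox3 and Sox6 carried the fewest. Levels were set as CPM, the count scaled to 1e6 footprints of the library, divided by the length in kilobases of the gene's longest coding sequence. On this scale the mean of the highest member, Sox4, was 15.7-fold that of the lowest, Sox6. The ratio of Sox4 to Sox6 was 28.8 in replicate 1 and 8.98 in replicate 2, where Sox3 and not Sox6 was lowest. The same ratio was 63.8 for the means of the highest coding transcripts. That rule counts 1 of the 5 Sox6 transcripts and the only Sox4 transcript, so it leaves out footprints of Sox6 alone. The median over 13349 coding genes whose mean count reached 10 was 23.5 CPM per kilobase, and 8 of the 10 Sox genes lay above it. Density percentiles and median densities of all genes given below refer to these 13349 genes. All 10 reached that count minimum. The order by mean density was Sox4, Sox11, Sox2, Sox9, Sox8, Sox5, Sox1, Sox21, Sox3 and Sox6. Of the 9 neighbouring pairs in this order, 6 had the same order in both replicates, and 4 were also separated by their 95% counting intervals in both. These 4 steps were from Sox4 to Sox11, from Sox11 to Sox2, from Sox8 to Sox5 and from Sox21 to Sox3. Sox9 and Sox8, Sox5 and Sox1, and Sox3 and Sox6 changed places between the replicates. Sox2 lay above Sox9 in both, but with overlapping intervals in replicate 2, and the intervals of Sox1 and Sox21 overlapped in both.

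**Figure D1:**
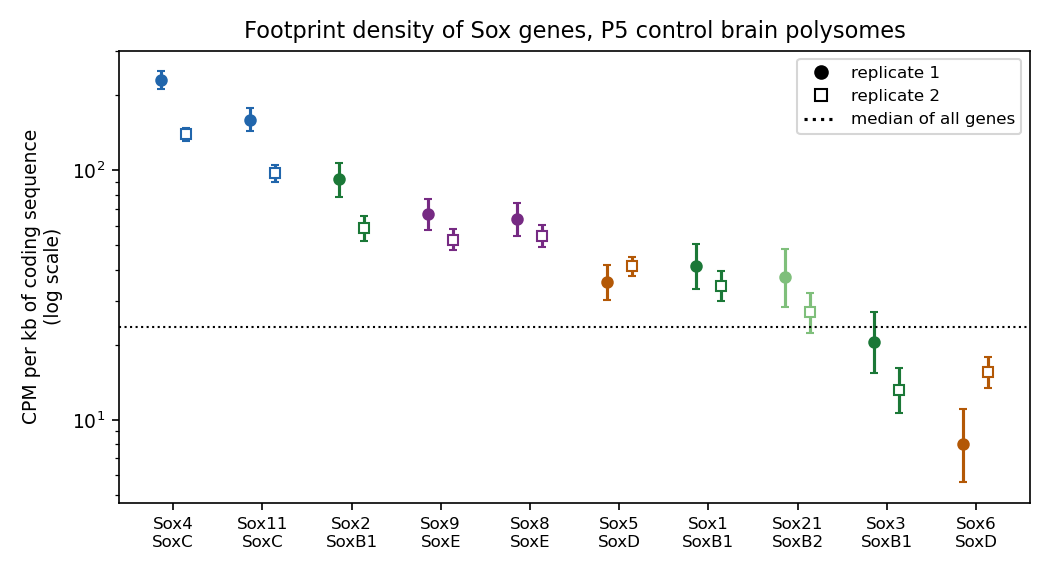
Footprint density of the 10 Sox genes in CPM per kilobase of longest coding sequence, on a log axis, with replicate 1 as filled circles and replicate 2 as open squares. Bars are exact Poisson 95% intervals and colours mark Sox groups. The dotted line is the median, 23.5, of the 13349 coding genes whose mean count reached 10. Sox4 and Sox11 lie highest in both libraries, and Sox3 and Sox6 lie below the line.

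Sox4 and Sox11 are the SoxC members, both drivers of neuronal differentiation whose products are also found in maturing neurons. Sox4 had 568 footprints in replicate 1 against 971 in replicate 2. That gave 230.0 CPM per kilobase (95% interval 211 to 249.7) and 139 (131 to 149), a mean density of 185 ± 64.0 (SD, n = 2), at percentile 92.3 of all genes. Replicate 1 was the higher library, and its interval did not reach that of replicate 2. Sox11 had 354 and 609 footprints. Its density was 159.6 (143 to 177) and 97.4 (89.8 to 105), with a mean of 129 ± 44.0, at percentile 88.0. Sox11 was again higher in replicate 1, and the ratio of Sox4 to Sox11 was 1.44 in replicate 1 and 1.43 in replicate 2. Both genes were annotated with 1 transcript each and long untranslated regions. The coding sequence was 1323 of 4795 nucleotides (27.6%) in Sox4 and 1188 of 8311 nucleotides (14.3%) in Sox11. The files give counts for whole transcripts, so the share of Sox4 or Sox11 footprints that lay outside the coding sequence was not analysed here. The remaining SoxC gene, Sox12, was no member of the selection and had 173 and 365 footprints, or 98.1 and 73.4 CPM per kilobase.

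Sox1, Sox2 and Sox3, the SoxB1 genes, spanned a wide range although their proteins act alike in progenitors. Sox2, which also sustains pluripotent cells, had 165 and 297 footprints. Its density was 92.1 CPM per kilobase (78.6 to 107) and 58.8 (52.3 to 65.9), with a mean of 75.4 ± 23.5 (SD, n = 2), at percentile 79.8 of all genes. Sox1, the SoxB1 gene most restricted to neural tissue, had 91 and 213 footprints, with a mean density of 37.9 ± 4.97. Sox3, an X-linked gene needed for the hypothalamus and pituitary, had 52 and 94 footprints, with a mean density of 16.9 ± 5.22. The order Sox2, Sox1, Sox3 was the same in both libraries, and no interval of 1 of them overlapped that of another within a library. Sox2 lies within the long non-coding gene Sox2ot, whose 18 transcripts held 10 footprints in replicate 1 and 35 in replicate 2 in all. The SoxB2 member Sox21, a repressor in progenitors, had 58 and 118 footprints and a mean density of 32.2 ± 7.35. That put it beside Sox1 and above Sox3. Sox14, the other SoxB2 gene, had 22 and 45 footprints, or 16.3 and 11.8 CPM per kilobase.

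Sox8 and Sox9 represent the SoxE group. Sox9 directs the switch of progenitors from neuron to glia production and stays on in astrocytes, and Sox8 acts with its relatives in oligodendrocytes. Sox9 had 190 and 423 footprints. Its density was 66.8 CPM per kilobase (57.6 to 77.0) and 52.7 (47.8 to 58.0), with a mean of 59.8 ± 9.92 (SD, n = 2). Sox8 had 166 and 401 footprints. Its density was 63.7 (54.4 to 74.2) and 54.6 (49.4 to 60.2), with a mean of 59.2 ± 6.44. With all transcripts of a gene summed, the levels of Sox8 and Sox9 did not differ beyond their spread, and their intervals overlapped in both libraries. Counted on its highest coding transcript alone, Sox8 was at 39.6 and 33.6 CPM per kilobase and lay below Sox9 in both. Sox8 kept 62.0% and 61.6% of its footprints there at the same length, while Sox9, with 1 transcript, kept all. That rule could only lower Sox8 against Sox9, so it does not rank them. Sox10, the oligodendrocyte lineage gene of the group and no member here, had 104 and 232 footprints, or 39.8 and 31.5 CPM per kilobase.

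Sox5 and Sox6, the SoxD genes, had the longest coding sequences of the 10, at 2292 and 2484 nucleotides. Sox5 controls the timing and identity of deep-layer cortical projection neurons, and Sox6 the positioning and maturation of interneurons from the medial ganglionic eminence. Sox5 had 153 footprints in replicate 1 and 498 in replicate 2, and its density was 35.8 CPM per kilobase (30.3 to 41.9) and 41.3 (37.7 to 45.1). The intervals overlapped, with a mean of 38.5 ± 3.91 (SD, n = 2), summed over 14 transcripts. Sox6 had 37 and 203 footprints, and its density was 7.98 (5.62 to 11.0) and 15.5 (13.5 to 17.8). Sox6 was higher in replicate 2 with no overlap, and its mean of 11.8 ± 5.34 lay at percentile 31.6 of all genes. On the highest coding transcript alone, the mean density was 6.95 for Sox5 and 2.89 for Sox6, both below the median of 11.5 that all genes had on that scale. Those transcripts held 18.3% and 15.7% of the Sox5 footprints, and 29.7% and 20.2% of the Sox6 footprints. The scale thus lowers genes whose footprints are spread over several transcripts, and these values are not levels of the whole gene. Sox13, the third SoxD gene and no member, had 21 and 82 footprints, or 6.11 and 8.46 CPM per kilobase.

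The members differed in how many annotated transcripts shared their footprints. Sox1, Sox2, Sox3, Sox4, Sox9, Sox11 and Sox21 had 1 transcript each (7 of 10), whereas Sox8 had 3, Sox6 had 5 and Sox5 had 14. In Sox5, the 4 transcripts with a coding sequence of 2040 to 2292 nucleotides held 64.1% of the footprints in replicate 1 and 58.6% in replicate 2. These encode the long forms of the protein. Sox5-003, with a coding sequence of 1179 nucleotides, held 7.19% and 10.04%. A further 7 Sox5 transcripts had no coding sequence and held 23.5% and 27.5%; they share exons with coding transcripts, so they can hold footprints of those. No footprint was counted on the 6 antisense and intronic genes named after Sox5. In Sox6, the 5 transcripts held 4 to 11 footprints each in replicate 1 and 33 to 45 in replicate 2, and no transcript stood out in both libraries. In Sox8, Sox8-001 with the full coding sequence of 1395 nucleotides held 103 and 247 footprints, or 62.0% and 61.6%.

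**Figure D2:**
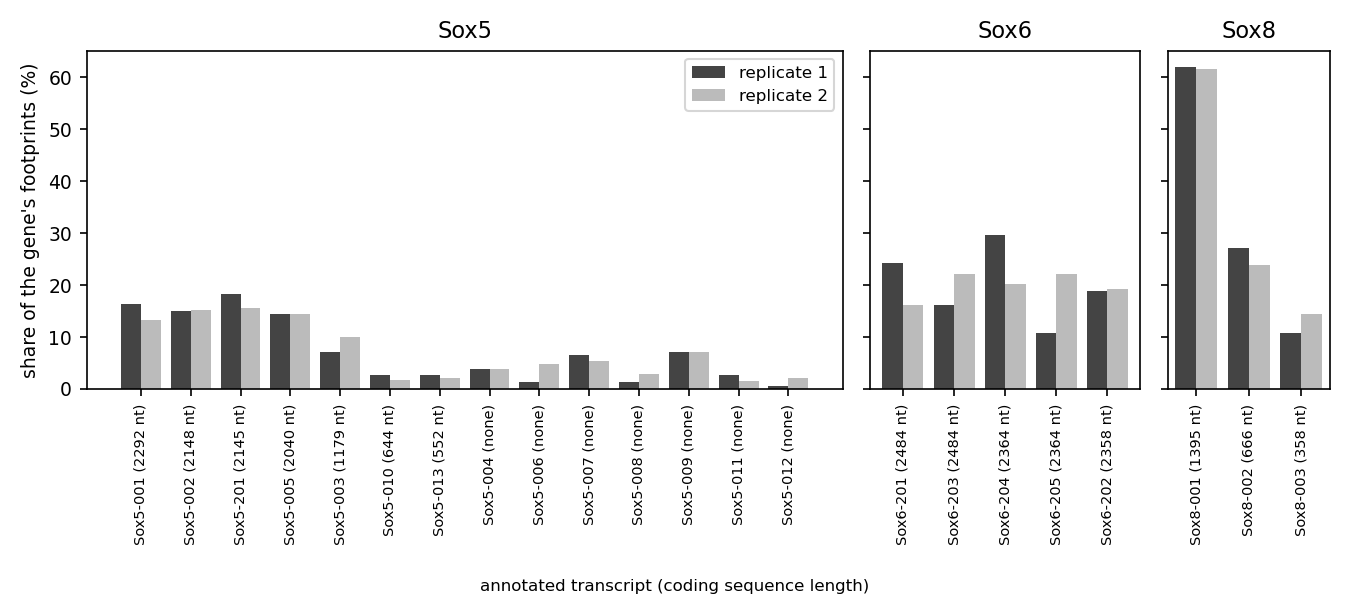
Share of the footprints of Sox5, Sox6 and Sox8 counted on each annotated transcript, in percent, with replicate 1 in dark and replicate 2 in light bars. Transcripts are ordered by coding sequence length, given in nucleotides; Sox8-001 holds 62.0% and 61.6% of its gene, while no transcript of Sox5 or Sox6 reaches 30% in either library.

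Compared as groups, SoxC exceeded SoxB1 and SoxE in both libraries, and SoxE exceeded SoxB1 by less. The mean density of the 2 SoxC members was 195 CPM per kilobase in replicate 1 and 118 in replicate 2. The 3 SoxB1 members averaged 51.4 and 35.5, and the 2 SoxE members 65.3 and 53.7. The SoxC level was thus 3.79-fold the SoxB1 level in replicate 1 and 3.34-fold in replicate 2, a mean log2 ratio of 1.83 ± 0.13 (SD, n = 2). SoxC over SoxE was 2.98-fold and 2.21-fold, a mean log2 ratio of 1.36 ± 0.31. SoxE over SoxB1 was 1.27-fold and 1.51-fold, a mean log2 ratio of 0.47 ± 0.18, and this difference rests on Sox1 and Sox3, since Sox2 alone lay above Sox8 and Sox9. The 2 SoxD members averaged 21.9 and 28.4, so SoxC over SoxD was 8.91-fold in replicate 1 and 4.17-fold in replicate 2. No test of these ratios was made, since the design holds 2 animals of 1 group.

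The distance between SoxC and the glial genes depended on the length used. Per kilobase of whole transcript, Sox11 dropped from rank 2 to rank 5 among the 10 members, at a mean of 18.4 CPM per kilobase, and Sox8 moved from rank 5 to rank 2, at 38.4. Sox4 stayed highest at 51.0. On that scale the log2 ratio of SoxC over SoxE was 0.39 in replicate 1 and -0.07 in replicate 2, so its direction differed between the libraries. SoxC over SoxB1 stayed above 0 in both, at 0.96 and 0.82. The number of members above the median of all genes was 6 in place of 8 on the whole-transcript scale.

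**Figure D3:**
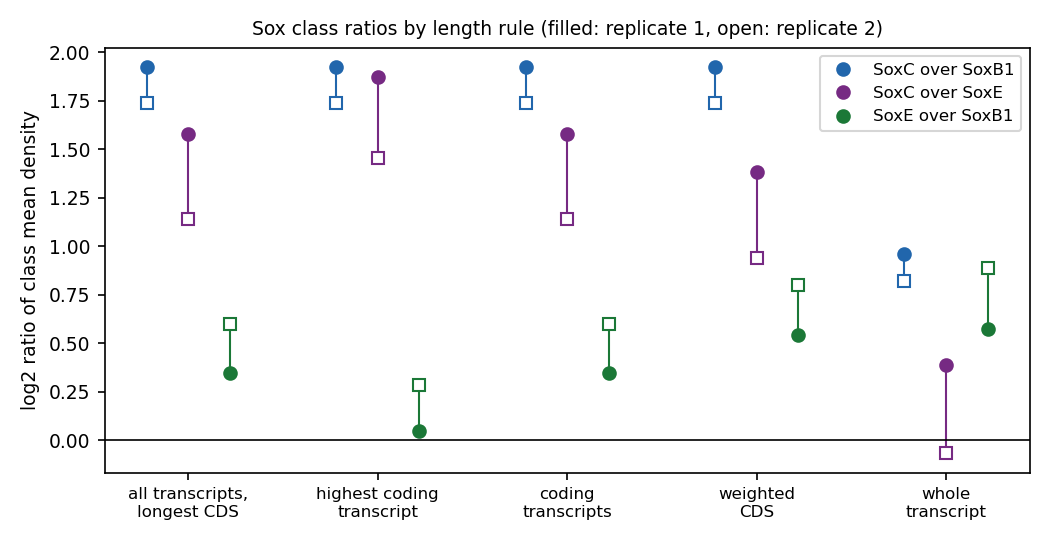
Log2 ratio of mean density between Sox groups under 5 rules for counts and length, with replicate 1 as filled circles and replicate 2 as open squares joined by a line. SoxC over SoxB1 is above 0 under every rule, and SoxC over SoxE reaches -0.07 in replicate 2 when density is taken per whole transcript.

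The replicate libraries differed at most of these genes by more than counting noise. The exact binomial test with TMM scaling, adjusted over 16427 genes, called 6 of the 10 Sox genes, 5 lower and 1 higher in replicate 2. Over all genes tested the called share was 17.4%, with 11.5% lower and 5.95% higher. All 10 Sox genes also reached a mean count of 50, where more genes have enough counts to be called. Tested over the 11057 genes with that count, 5 Sox genes were again lower and 1 higher. The called share of those genes was 26.5%, with 15.8% lower and 10.7% higher. The median log2 ratio of replicate 2 over replicate 1 was -0.52 over the Sox genes and 0.01 over all genes. Sox4 had a log2 ratio of -0.85 (95% counting interval -0.998 to -0.696) with 6.77e-25 as its adjusted p (exact binomial). Sox11 had a log2 ratio of -0.84 (-1.03 to -0.65) with 3.35e-15 as its adjusted p (same exact test). The intervals of Sox4 and Sox11 overlapped, and both genes lay among the lowest 3% of log2 ratios, at percentiles 2.47 and 2.61. Sox2 had a log2 ratio of -0.77 (exact binomial adjusted p = 2.6e-06), Sox3 of -0.75 (adjusted p = 0.0200, exact) and Sox9 of -0.46 (adjusted p = 0.00321, exact). Sox6 was the member higher in replicate 2, at a log2 ratio of 0.82 (0.32 to 1.38) and an exact binomial adjusted p of 0.00666. Sox1, Sox8 and Sox21 had log2 ratios of -0.39, -0.35 and -0.59 and did not pass, and Sox5, at 0.08, did not either. Sox21 passed once a trend of the ratio with footprint density was removed (log2 ratio -0.65, adjusted p = 0.0382, exact binomial), a setting in which 9.04% of all genes were called lower. The test compares 2 libraries of 1 group, and nothing in it relates to genotype or age. TMM moved every log2 ratio down by 0.13 against library totals. With library totals Sox3 was no longer called (adjusted p = 0.0670, exact binomial). The other 5 were, with Sox6 again the one called higher. In that setting 7.47% of all genes were called lower and 11.5% higher.

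**Figure D4:**
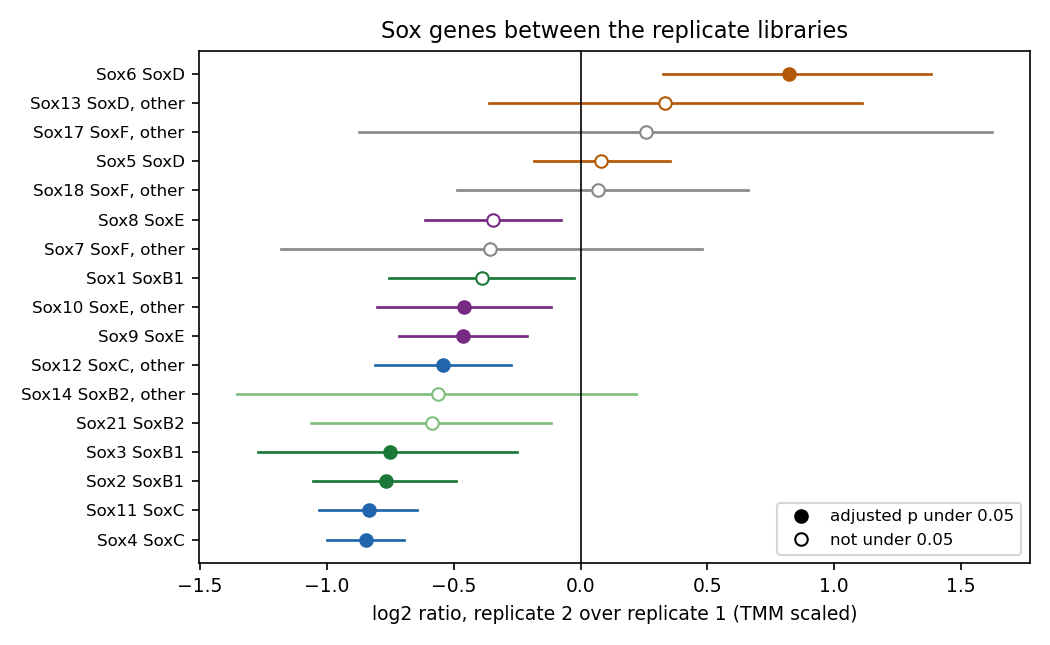
Log2 ratio of replicate 2 over replicate 1 with TMM scaling for the 10 Sox genes and for the other Sox genes tested; lines are exact binomial 95% intervals, colours mark Sox groups and filled points have an adjusted p under 0.05. Sox4 and Sox11 lie lowest, at -0.85 and -0.84, and Sox6 highest, at 0.82.

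Log2 ratios between the libraries moved with the number of annotated transcripts across the whole table, and those of the 10 members did too. This relation was looked for after the data were examined. Among 3436 tested genes with a coding sequence and 1 transcript, the median log2 ratio was -0.28, with 25.5% called lower and 0.728% called higher. Among 1593 genes with 10 or more transcripts the median was 0.20, with 2.76% called lower and 22.6% called higher. All 7 members with 1 transcript had negative log2 ratios, and the 2 members with 5 or more transcripts, Sox5 and Sox6, had positive ones. Outside the selection, Sox7, Sox10 and Sox18 also had 1 transcript each. Sox7 and Sox10 were at -0.36 and -0.46, but Sox18 was at 0.07, above the median of such genes. When the median of genes with a like number of transcripts was removed, Sox4 was at -0.56 (adjusted p = 2.14e-11, exact binomial), Sox11 at -0.55 (5.89e-07) and Sox2 at -0.49 (0.00704), all still called lower, as were 9.33% of all genes in that setting. Sox6 was at 0.70 (adjusted p = 0.0385, exact binomial) and stayed called higher, as were 3.23% of all genes. Sox3, at -0.47 (0.221), and Sox9, at -0.18 (0.414), no longer passed. Sox6 was above the scaled library ratio of 3.08 on 5 of its 5 transcripts. These transcripts may share fragments, so they are not 5 separate observations. The call of Sox6 was lost when its highest transcript alone was counted (log2 ratio 0.34, adjusted p = 0.839, exact binomial). In that setting 1.65% of all genes were called higher.

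**Figure D5:**
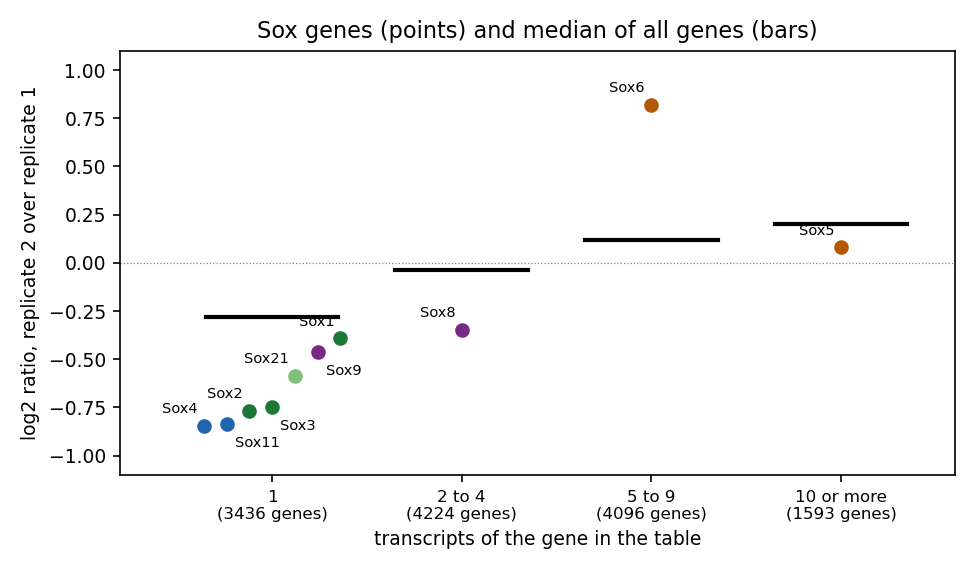
Log2 ratio of replicate 2 over replicate 1 by the number of transcripts a gene has in the table; points are the 10 Sox genes, coloured by Sox group, and black bars are the medians of all tested genes with a coding sequence. The medians run from -0.28 with 1 transcript to 0.20 with 10 or more. All 7 members with 1 transcript lie below the median of such genes, and Sox6 lies above that of its class.

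The promoters of the 3 Sox genes that stayed called lower in replicate 2 are shown as a description. These genes were chosen by that call, which 9.33% of all genes also had. Whether they share any regulation was not tested. RefSeq promoter entries (GRCm38.p6) were found for 8 of the 10 members, all but Sox3 and Sox9. Each sequence runs 5′ to 3′ over the 250 bases before the annotated start. Capitals mark CCAAT and GGGCGG on either strand (ATTGG and CCGCCC on the other); TATAAA was searched too and was not in these 3.
Sox4, chr13:28953700-28953949, minus strand: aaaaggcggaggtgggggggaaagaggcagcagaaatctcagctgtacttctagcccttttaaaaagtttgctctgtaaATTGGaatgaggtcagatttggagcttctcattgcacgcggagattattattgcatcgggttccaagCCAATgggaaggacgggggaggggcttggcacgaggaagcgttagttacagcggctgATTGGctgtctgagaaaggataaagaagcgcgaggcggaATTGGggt
Sox11, chr12:27342719-27342968, minus strand: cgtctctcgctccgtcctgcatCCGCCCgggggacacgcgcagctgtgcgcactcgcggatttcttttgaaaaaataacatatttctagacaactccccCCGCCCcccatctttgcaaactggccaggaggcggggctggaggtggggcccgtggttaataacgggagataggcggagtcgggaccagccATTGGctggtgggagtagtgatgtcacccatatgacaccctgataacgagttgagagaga
Sox2, chr3:34649745-34649994, plus strand: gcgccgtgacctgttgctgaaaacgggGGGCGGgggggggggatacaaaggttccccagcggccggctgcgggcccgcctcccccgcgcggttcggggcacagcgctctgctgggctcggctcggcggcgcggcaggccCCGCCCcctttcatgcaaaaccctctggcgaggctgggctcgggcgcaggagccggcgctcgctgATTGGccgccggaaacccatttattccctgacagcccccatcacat
CCAAT was found 4 times in Sox4, 1 time in Sox11 and 1 time in Sox2, and is present in 33.8% of all 32851 promoter windows of this length. GGGCGG was found 2 times each in Sox11 and Sox2 and not in Sox4, against 32.7% of all windows. The windows held 50.8% G and C in Sox4, 58.0% in Sox11 and 72.0% in Sox2, where the median of all windows was 52.4%. These letters describe the windows and do not show that a factor bound there.

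Partner factors and cell type genes gave values beside the Sox genes in the same comparison, in which 11.5% of all genes were called lower and 5.95% higher. Of 6 partner genes, 3 were called lower in replicate 2 and 2 higher, with a median log2 ratio of -0.44. Pou3f1, Pou3f2 and Pou3f3, POU factors that bind beside SoxB1 and SoxC proteins, had log2 ratios of -0.68, -0.60 and -0.71, and Pax6 and Chd7 had 0.67 and 0.95. Of 11 young neuron genes, the cells in which SoxC genes act, 6 were called lower and 2 higher, with a median of -0.38. Stmn2, the densest of them, had 1674 and 2928 footprints and a log2 ratio of -0.81. Of 12 neural progenitor genes, where SoxB1 genes act, 3 were called lower, among them Fabp7 at -0.67, with a median of -0.16. The 2 called higher were Prom1 at 1.13 and Pax6 at 0.67, which is also one of the partner genes. Of 8 interneuron genes of the medial ganglionic eminence, 4 were called lower and 0 higher, with a median of -0.51. Their log2 ratios ran from -1.28 to 0.65, while Sox6 was at 0.82. Of 5 genes of deep-layer cortical neurons, 2 were called lower and 0 higher, with a median of -0.21. Of 10 astrocyte genes, 2 were called lower and 1 higher, with a median of -0.09. Of 11 oligodendrocyte lineage genes, 3 were called lower and 4 higher, with a median of 0.04. None of these list values was adjusted for the number of annotated transcripts, with which log2 ratios moved across the whole table. The part of these genes in the Sox differences was not tested.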

How the data were processed

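Ribosome-protected fragments were analysed from 2 polysome libraries of control mouse brain. The authors deposited whole-number counts per transcript, not normalized, with 1 column per replicate, and lengths in nucleotides as other annotation columns. Per the submitters' processing notes, Trimmomatic 0.36, Bowtie2 2.2.6, SAMtools and build GRCm38.p4 were used; the counting tool and the treatment of fragments shared between transcripts are not given in the sources used here. A fragment counted on more than 1 transcript, or split between them, would change the level of genes with several transcripts. If fragments were counted more than 1 time, the intervals and p-values of such genes, Sox5, Sox6 and Sox8 among them, would be too small.

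Counts were summed per Ensembl gene, and symbols were transcript names without the trailing number. The 10 Sox genes and all lists were chosen with earlier results of these data known. Levels are CPM (counts scaled to 1e6 of the library total) per kilobase of the gene's longest coding sequence, with exact Poisson intervals at 95%. The libraries held 1866831 and 5261878 counts. The replicate counts of each gene were set against TMM effective library sizes (edgeR 4.0.16; factors 0.957 and 1.04) in an exact binomial test, two-sided, with Benjamini-Hochberg adjustment over 16427 genes whose mean count reached 10. An adjusted p under 0.05 was a call. A quasi-likelihood test was not fitted, since 1 group has no contrast. Log2 ratios used a prior of 0.5 CPM. All 10 members, the other Sox genes, the gene of highest mean density of each list and called genes of the lists were open to naming. Since PCR copies are not independent molecules, each interval, floor and p-value covers the error of counting alone. The test was checked on simulated counts that held counting error alone, so the check does not cover PCR copies or differences between animals. Alternatives were DESeq2 1.42.0 size factors, library totals, other count minimums, 1 transcript per gene and other lengths; removing 2 trends and leaving out Sox4 or Sox11 were added after the data were examined. SciPy 1.17.1 and statsmodels 0.14.6 were used. Promoter sequences came from RefSeq (GRCm38.p6).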

Additional observations from a re-analysis of the deposited data

How the results depend on the processing

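No paired analysis was possible because the series has 1 group. The comparison of the replicates needs both, so it was not run with 1 left out. The number of Sox genes called was 6, and 4 to 7 in the alternatives, where 9.41% (highest transcript alone) to 26.5% (mean count of at least 50) of all genes were called. The number called higher in replicate 2 went from 1 to 0 with the highest transcript alone, and the number called lower from 5 to 3 once the trend with the number of transcripts was removed. With the highest transcript alone, fewer counts were tested. Sox5 turned to a log2 ratio of -0.069 with the highest transcript and to -0.12 without the trend with the number of transcripts, and was not called in any setting. The log2 ratio of SoxC over SoxB1, 1.83, became 0.89 per whole transcript, 2.06 with geometric means, 1.60 with Sox10 and Sox12 added, 1.55 without Sox4 and 2.07 without Sox11. SoxC over SoxE, 1.36, became 0.16 per whole transcript. SoxE over SoxB1, 0.47, became 0.17 with the highest coding transcript, 0.67 with the weighted coding sequence, 0.73 per whole transcript, 0.73 with geometric means and 0.26 with Sox10 and Sox12 added. None of these 3 mean ratios changed sign; SoxC over SoxD was not run under the alternatives. At the depth of replicate 1, Sox6 rests on 37 footprints.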

Other observations

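The SoxF genes Sox7, Sox17 and Sox18, which act in endothelium, had 19, 8 and 35 footprints in replicate 1 and 45, 30 and 113 in replicate 2. Their mean densities were 8.19 ± 1.01, 3.96 ± 0.795 and 17.7 ± 1.70 CPM per kilobase of coding sequence (SD, n = 2), all under the median of all genes, as were Sox3, Sox6, Sox13 and Sox14, and none was called between the libraries. Endothelial markers took 0.0282% ± 0.00188 of the footprints, led by Cldn5 at 172 CPM per kilobase. Sox15, Sox30 and Sry had 0 footprints in both libraries, which sets an upper limit of 1.61 CPM for the first library and 0.570 CPM for the second (3 counts).

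Sox5, Sox6 and Sox9 are also needed in cartilage. The 5 cartilage genes took 0.00242% ± 9.38e-05 of the footprints (SD, n = 2). Col2a1 was the densest at 2.41 CPM per kilobase, and Comp and Matn1 had 0 footprints in replicate 1 and 1 and 3 in replicate 2. Among the other Sox genes, Sox12 and Sox10 were called lower in replicate 2, at log2 ratios of -0.54 and -0.46 (adjusted p = 0.000974 and 0.0453, exact binomial test), and Sox13 (0.33) and Sox14 (-0.56) were not called.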
